A study of Mus musculus with 15 samples.

Results

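The insulin-like growth factor (IGF) axis was followed through the adipogenic conversion of mouse embryonic fibroblasts (MEFs) by 9 genes chosen by name: the ligand gene Igf1, the receptor genes Igf1r and Igf2r, and the binding protein genes Igfbp2, Igfbp3, Igfbp4, Igfbp5, Igfbp6 and Igfbp7. They are 9 of the 46603 Ensembl genes in the count files, and all 9 were among the 15997 genes that passed the filter on low counts. Igfbp2 passed it only through its counts in the treated MEFs at day 3. It is therefore described by its counts alone and left out of the counts of members called, except where the section on processing says otherwise.

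IGF1 is a secreted peptide that activates the IGF1 receptor, a tyrosine kinase that signals through insulin receptor substrates, phosphatidylinositol 3-kinase and AKT. The IGF2 receptor, which is also the cation-independent mannose 6-phosphate receptor, has no kinase and carries IGF2 and lysosomal enzymes into the endosomal system. IGF binding proteins hold the ligands outside the cell, where proteases release them again, and fibroblasts and fat cell precursors both make and respond to these proteins.

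The cells were wild-type BALB/c MEFs from embryos of 10.5 days, grown in medium with 10% fetal bovine serum and measured by RNA-Seq with 3 samples (numbered 1, 3 and 4) per condition. MEFD0 was taken at day 0 before treatment, MEFD3min and MEFD5min were untreated cells at days 3 and 5, and MEFD3plu and MEFD5plu were cells given rosiglitazone at 10 µM, dexamethasone at 1 µM, insulin at 10 µg/mL and the phosphodiesterase inhibitor IBMX at 0.5 mM. As the methods of the study describe, growth medium replaced the differentiation medium after the earlier time point, so MEFD5plu cells were no longer in it when collected. The study's methods speak in general of independent experiments but do not tie these sample numbers to separate embryos or cultures, so p-values measure the spread between these samples, which may be technical.

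Total counts lay between 24030558 and 37281126 per sample. All 8 genes of a fibroblast list were above the floor (more than 3 counts in a sample) in every condition, although their levels differed between conditions. The 10 genes of an adipocyte list summed to between 7647 and 11733 CPM (counts divided by the scaled library size) in treated samples and to between 42.5 and 78.3 CPM in the others. Macrophage genes summed to at most 6.97 CPM, with the defining marker Adgre1 at 0 in all 15 samples, and endothelial, epithelial and muscle lists to at most 2.23 CPM. MEFD3min replicate 3 stood apart from both other MEFD3min samples, and results that rest on it are given with and without it. In these bulk samples fewer cells of a type and less RNA per cell cannot be told apart.

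Levels are given as RPKM, CPM per kilobase of annotated exon, so that genes of different length can be set side by side. Differences are log2 fold changes with standard errors (SE) from edgeR's quasi-likelihood test, and a gene was called at a Benjamini-Hochberg adjusted p under 0.05 over all genes tested.

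**Figure D1:**
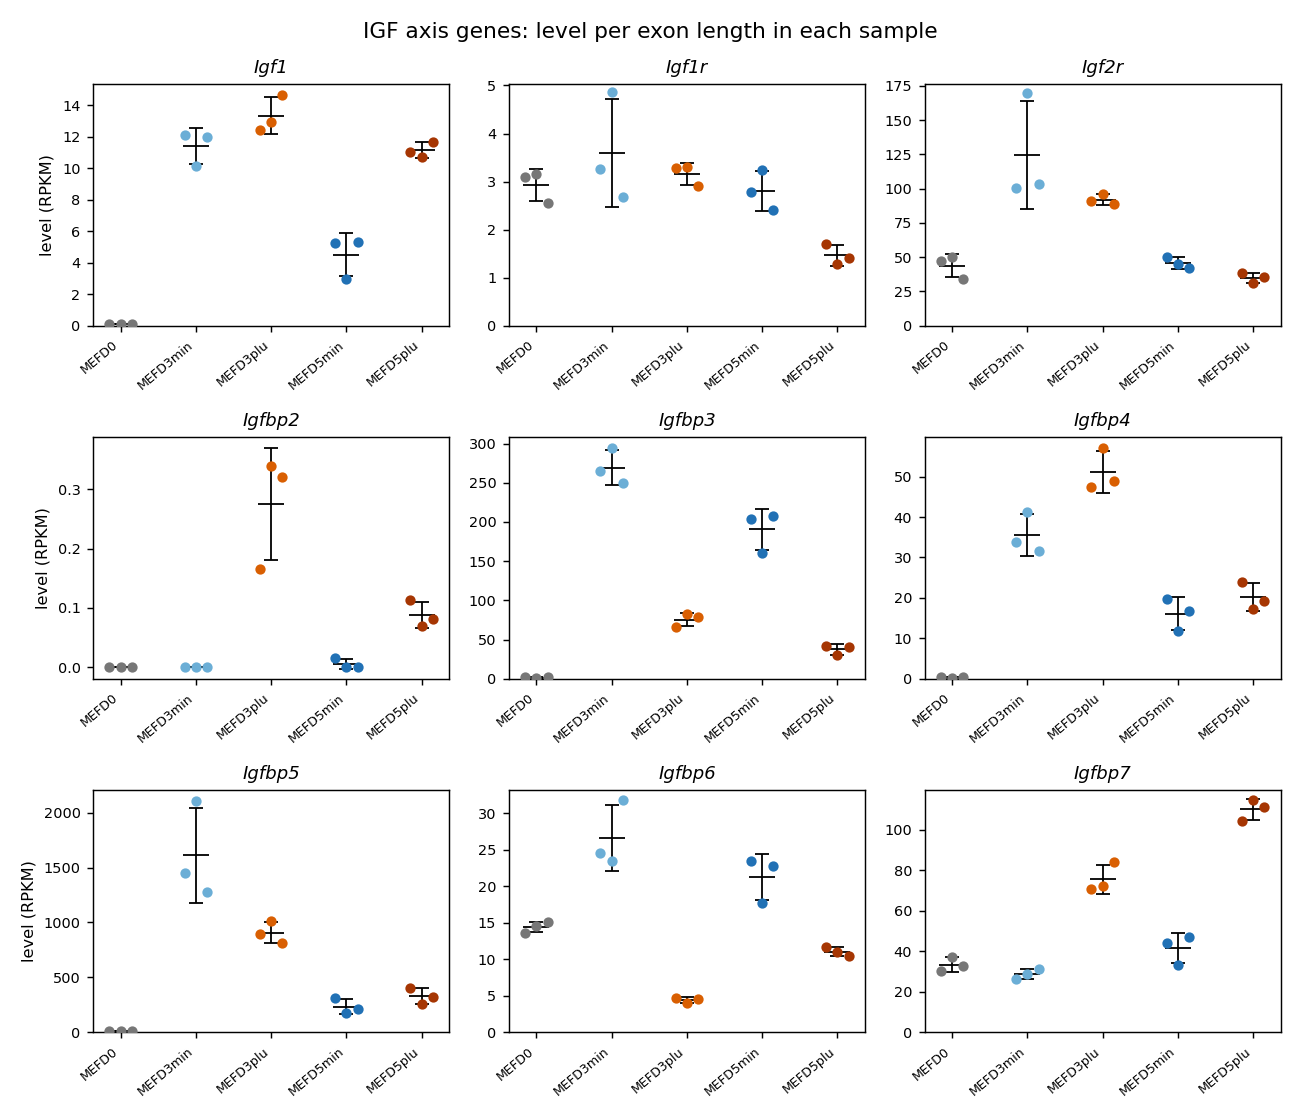
Level of each of the 9 genes (y axis, RPKM, a separate linear scale per gene) in the 5 conditions (x axis); points are the 3 samples, the dash is their mean and the whiskers 1 SD. Igf1, Igfbp3, Igfbp4 and Igfbp5 lie close to 0 at day 0 and higher in each later condition, and Igfbp7 is highest in both treated conditions.

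The largest differences among the 8 members other than Igfbp2 lay between day 0 and the later days, also without treatment. Of these 8, 6 were higher in MEFD3min than in MEFD0 and none was lower, where 31.4% of all genes tested were higher, 28.6% lower and 60.0% called in all. Igf1, Igfbp3, Igfbp4 and Igfbp5 rose between 88.8-fold and 200-fold, whereas the changes of Igf2r (2.85-fold) and Igfbp6 (1.84-fold) were smaller. Igf1r and Igfbp7 were not called, but Igfbp7 was called lower when libraries were scaled by total counts alone (-0.34, edgeR adjusted p = 0.0106). Fibroblast genes moved with this step. Of the 8 in the list 6 were higher and 2 lower in MEFD3min than in MEFD0. The matrix proteoglycan genes Dcn and Lum went from means of 15.3 and 0.772 CPM to 2830 and 361 CPM. The 2 lower genes were Vim, from 6542 to 2814 CPM, and Thy1, from 93.1 to 76.2 CPM. The part of the fibroblast genes in the rise of the members was not tested.

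Igf1 (ENSMUSG00000020053; GRCm38, chr10:87858265-87937042, plus strand) was low at day 0, with 0.10, 0.126 and 0.130 RPKM in MEFD0 replicates 1, 3 and 4. It reached 12.1, 10.1 and 12.0 RPKM in MEFD3min and 12.4, 12.9 and 14.6 RPKM in MEFD3plu. At day 5 it stood at 5.24, 2.94 and 5.33 RPKM in MEFD5min against 11.03, 10.7 and 11.7 RPKM in MEFD5plu. Thus every later sample lay far above the MEFD0 samples, and the treated and untreated groups did not overlap at either day, with a wide gap only at day 5.

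At day 3 the Igf1 difference between MEFD3plu and MEFD3min was 0.22 ± 0.16 (SE) on the log2 scale and was not called (edgeR adjusted p = 0.236). It was called in a fit of the day 3 samples alone with the replicate number, which pairs these samples, as a block (0.21, edgeR adjusted p = 0.0241). At day 5 Igf1 was 2.47-fold higher in treated cells (log2 fold change 1.30 ± 0.16 (SE), edgeR adjusted p = 3.95e-06). The treatment effects at the 2 days differed by -1.08 ± 0.22 (SE; day 3 minus day 5, edgeR adjusted p = 0.000712). The untreated cells lost Igf1 transcript between days 3 and 5 (log2 fold change -1.34, edgeR adjusted p = 3.58e-06), whereas the treated cells differed by -0.26 (edgeR adjusted p = 0.161), with no overlap between MEFD3plu and MEFD5plu. This smaller fall was called with no filter on low counts (-0.28, edgeR adjusted p = 0.0217) and with only the samples compared (-0.29, edgeR adjusted p = 0.0042).

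The tyrosine kinase receptor gene Igf1r (ENSMUSG00000005533; chr7:67952827-68233668, plus strand) varied least of the members with a detectable level. Its RPKM were 3.08, 3.16 and 2.55 in MEFD0, and 2.78, 3.23 and 2.40 in MEFD5min. At day 3 they were 3.25, 4.86 and 2.69 in MEFD3min and 3.28, 3.31 and 2.90 in MEFD3plu, and the groups overlapped. In MEFD5plu they were 1.71, 1.28 and 1.41, below every other sample.

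Igf1r was 1.91-fold lower in treated than in untreated cells at day 5 (log2 fold change -0.94 ± 0.18 (SE), edgeR adjusted p = 0.000313) and 2.16-fold lower in MEFD5plu than in MEFD3plu (log2 fold change -1.11, edgeR adjusted p = 3.91e-05). At day 3 the treatment difference was -0.19 ± 0.17 (SE; edgeR adjusted p = 0.375), and it was 0.09 without MEFD3min replicate 3 (edgeR adjusted p = 0.601). The effects at both days differed by 0.75 ± 0.25 (SE; edgeR adjusted p = 0.0186), a call that was lost without MEFD5min replicate 3 (edgeR adjusted p = 0.0536) or MEFD5plu replicate 3 (edgeR adjusted p = 0.0526). Without MEFD3min replicate 4, Igf1r was also called between MEFD3min and MEFD0 (0.47, edgeR adjusted p = 0.0161) and between MEFD5min and MEFD3min (-0.53, edgeR adjusted p = 0.0104). Both were also called with no filter on low counts (edgeR adjusted p = 0.0145 and 0.00148), and the latter with the replicate block (edgeR adjusted p = 0.039). Without MEFD3min replicate 3, however, these 2 differences were 0.0187 and -0.084 (edgeR adjusted p = 0.922 and 0.667). Igf1 and its receptor gene moved in opposite directions with treatment at day 5.

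Igf2r (ENSMUSG00000023830; chr17:12682406-12769664, minus strand) had a higher level per length than Igf1r in every condition. In MEFD0 it stood at 47.0, 50.3 and 34.0 RPKM. At day 3 it was 101, 169.6 and 103 RPKM in MEFD3min and 90.8, 96.3 and 88.6 RPKM in MEFD3plu. At day 5 it was back at 50.4, 45.2 and 42.1 RPKM in MEFD5min and at 38.5, 31.0 and 35.2 RPKM in MEFD5plu.

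The day 3 rise of Igf2r was thus present with and without treatment. At day 5 neither MEFD5min (0.07, edgeR adjusted p = 0.777) nor MEFD5plu (-0.33, edgeR adjusted p = 0.111) was called against MEFD0, but the MEFD5plu call depended on the settings. It was made by DESeq2 (adjusted p = 0.0476) and, in edgeR, with total counts alone, with no filter, with only the samples compared and without MEFD0 replicate 4 (adjusted p = 0.0207, 0.00172, 0.0185 and 0.0252). It fell by 1.44 (log2) from MEFD3min to MEFD5min and by 1.40 from MEFD3plu to MEFD5plu, with edgeR adjusted p = 4.84e-06 and 3.34e-06. The effect of treatment was small on both days. It was -0.44 ± 0.17 (SE) at day 3 (edgeR adjusted p = 0.0406) and -0.39 ± 0.17 (SE) at day 5 (edgeR adjusted p = 0.0691). The day 3 call rested on MEFD3min replicate 3, without which the difference was -0.15 (edgeR adjusted p = 0.353), and it was also lost without MEFD3plu replicate 1, 3 or 4 (edgeR adjusted p = 0.0932, 0.0632 and 0.0962), with total counts alone (edgeR adjusted p = 0.0581) and with only the samples compared (edgeR adjusted p = 0.0853). At day 5 the difference was called by DESeq2 (adjusted p = 0.0297) and in 6 further edgeR settings, namely size factors from DESeq2, total counts alone, no filter, only the samples compared, the replicate block and without MEFD5min replicate 4 (adjusted p = 0.0431, 0.0165, 0.00056, 0.00399, 0.0355 and 0.0449).

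The antisense RNA gene Airn overlaps the body of Igf2r on the opposite strand but shares no exon base with it, and its mean levels lay between 14.1 CPM in MEFD0 and 39.6 CPM in MEFD3min. The strand setting of the counting is not given in the sources used here, so reads of the 2 genes could be told apart only by their exons.

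Among the binding proteins, Igfbp5 became the dominant transcript. IGFBP5 binds both IGFs and also attaches to the extracellular matrix. The gene (ENSMUSG00000026185; chr1:72857932-72874884, minus strand) gave 7.82, 8.11 and 8.17 RPKM in MEFD0 and 1454, 2103 and 1276 RPKM in MEFD3min. By mean CPM it ranked 4521st of all genes in MEFD0 and 3rd in MEFD3min, where it held 0.946% of all counts. Treated cells at day 3 had 895, 1008 and 814 RPKM, all below the MEFD3min samples.

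At day 5 Igfbp5 had dropped to 309, 176 and 212 RPKM in MEFD5min and to 400.1, 257 and 319.7 RPKM in MEFD5plu, and here the groups overlapped. Treatment lowered Igfbp5 1.78-fold at day 3 (log2 fold change -0.83 ± 0.21 (SE), edgeR adjusted p = 0.00239). It was -0.59 without MEFD3min replicate 3 and still called (edgeR adjusted p = 0.0126). At day 5 the difference had the opposite sign, 0.48 ± 0.20 (SE), and was not called (edgeR adjusted p = 0.0587). It was called with no filter on low counts (edgeR adjusted p = 8.72e-06), with the replicate number as a block (edgeR adjusted p = 0.0336), without MEFD5min replicate 1 (0.74, edgeR adjusted p = 0.00714) and without MEFD5plu replicate 3 (0.63, edgeR adjusted p = 0.0276). The 2 effects differed by -1.32 ± 0.29 (SE; edgeR adjusted p = 0.00127).

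Igfbp3, the gene of the main IGF carrier of serum, showed a large and lasting effect of treatment. Igfbp3 (ENSMUSG00000020427; chr11:7206086-7213923, minus strand) rose from 1.88, 1.41 and 1.76 RPKM in MEFD0 to 265, 294 and 249 RPKM in MEFD3min. MEFD3plu reached 66.1, 82.1 and 78.4 RPKM. At day 5 MEFD5min held 203, 161 and 207 RPKM and MEFD5plu 42.1, 29.9 and 40.4 RPKM. No 2 conditions overlapped.

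Igfbp3 was 3.57-fold lower in treated cells at day 3 (log2 fold change -1.83 ± 0.14 (SE), edgeR adjusted p = 5.63e-09) and 5.09-fold lower at day 5 (log2 fold change -2.35 ± 0.14 (SE), edgeR adjusted p = 7.54e-10). The difference between both effects was 0.51 ± 0.19 (SE; edgeR adjusted p = 0.0355). This last call was lost when MEFD3min replicate 1 or 4, MEFD3plu replicate 3 or 4, MEFD5min replicate 1 or 4, or MEFD5plu replicate 3 was left out, with adjusted p up to 0.102.

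Igfbp4 encodes a binding protein that inhibits IGF action until the protease PAPP-A cleaves it. Igfbp4 (ENSMUSG00000017493; chr11:99041244-99054392, plus strand) gave 0.404, 0.312 and 0.487 RPKM in MEFD0. At day 3 it gave 33.7, 41.4 and 31.6 RPKM in MEFD3min and 47.4, 57.0 and 49.0 RPKM in MEFD3plu. At day 5 it gave 19.7, 11.7 and 16.8 RPKM in MEFD5min and 24.01, 17.2 and 19.3 RPKM in MEFD5plu. The treated samples were the higher ones at day 3, and the groups overlapped at day 5.

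The Igfbp4 difference was 0.52 ± 0.17 (SE) at day 3 (edgeR adjusted p = 0.0127) and 0.33 ± 0.17 (SE) at day 5 (edgeR adjusted p = 0.118). The day 3 call was lost without MEFD3plu replicate 3 (0.44, edgeR adjusted p = 0.0583), and at day 5 the difference was called without MEFD5min replicate 1 (0.50, edgeR adjusted p = 0.0297) and with no filter on low counts (edgeR adjusted p = 0.00789). The 2 effects were not shown to differ (0.20 ± 0.24 (SE), edgeR adjusted p = 0.519).

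The 4 members that rose more than 20-fold from MEFD0 to each later condition were Igf1, Igfbp3, Igfbp4 and Igfbp5. Against MEFD0, Igf1 was 37.7-fold higher in MEFD5min and 92.8-fold higher in MEFD5plu, Igfbp3 113-fold and 22.3-fold, Igfbp4 40.2-fold and 50.3-fold, and Igfbp5 29.0-fold and 40.5-fold. Igfbp4 and Igf1 were both highest in MEFD3plu, and Igfbp3 and Igfbp5 in MEFD3min.

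**Figure D2:**
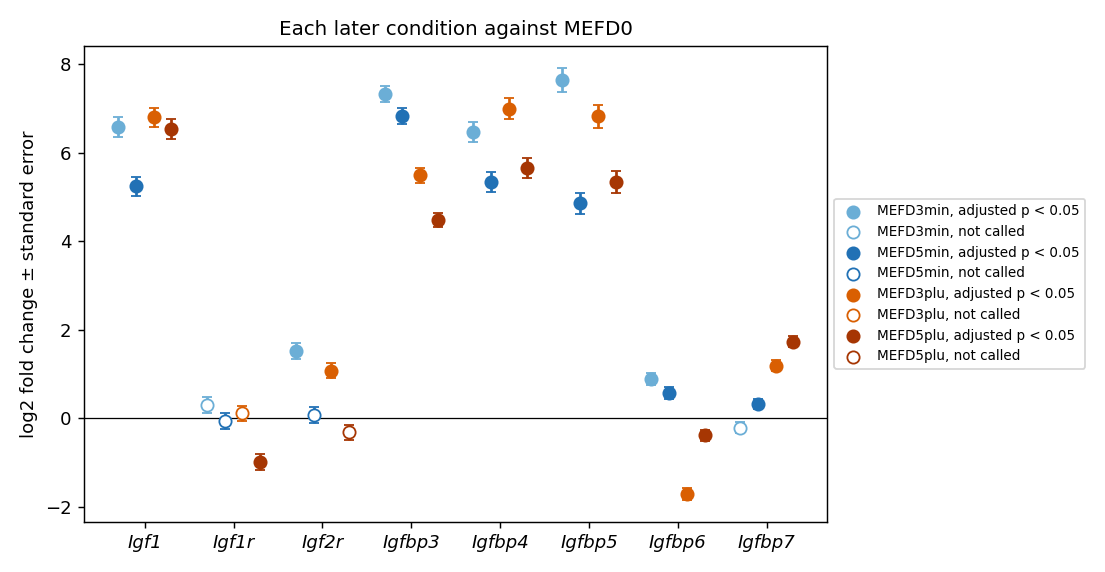
Log2 fold change of MEFD3min, MEFD5min, MEFD3plu and MEFD5plu against MEFD0 (y axis; bars are SEs, filled points were called) for the 8 members other than Igfbp2, which had no counts at day 0. Igf1, Igfbp3, Igfbp4 and Igfbp5 lie between 4.48 and 7.65, and Igf1r, Igf2r, Igfbp6 and Igfbp7 between -1.72 and 1.72; the 4 comparisons share the MEFD0 samples.

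The 250 bases before the RefSeq start of these 4 genes (GRCm38.p6) are shown, 5′ to 3′ on the strand of the gene, because the genes rose together. Capitals mark matches on either strand to the TATA box (TATAAA) and its variants TATATA and TATTTAA, which can overlap it, the CCAAT box, the GC box (GGGCGG), a C/EBP site (TTGCNNAA), an AP-1 site (TGANTCA), an E box (CACGTG) and a glucocorticoid half-site (AGAACA). The variants of the TATA box were added after the sequences had been read. The windows are chr10:87860861-87861110 (plus), chr11:7213924-7214173 (minus), chr11:99040994-99041243 (plus) and chr1:72874866-72875115 (minus).
Igf1: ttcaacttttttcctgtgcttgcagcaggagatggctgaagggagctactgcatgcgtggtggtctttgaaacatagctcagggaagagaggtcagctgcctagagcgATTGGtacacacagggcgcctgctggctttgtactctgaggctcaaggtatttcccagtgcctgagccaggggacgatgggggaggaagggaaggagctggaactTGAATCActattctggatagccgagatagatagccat
Igfbp3: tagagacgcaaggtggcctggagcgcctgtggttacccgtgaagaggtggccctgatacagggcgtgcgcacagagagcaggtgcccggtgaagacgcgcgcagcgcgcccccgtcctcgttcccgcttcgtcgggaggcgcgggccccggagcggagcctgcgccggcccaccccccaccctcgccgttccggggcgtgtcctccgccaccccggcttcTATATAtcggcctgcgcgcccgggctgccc
Igfbp4: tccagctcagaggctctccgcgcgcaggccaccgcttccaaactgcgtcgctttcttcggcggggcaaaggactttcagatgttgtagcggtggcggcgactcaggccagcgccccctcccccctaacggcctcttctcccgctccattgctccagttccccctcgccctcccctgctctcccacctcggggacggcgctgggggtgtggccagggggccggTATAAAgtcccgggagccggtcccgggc
Igfbp5: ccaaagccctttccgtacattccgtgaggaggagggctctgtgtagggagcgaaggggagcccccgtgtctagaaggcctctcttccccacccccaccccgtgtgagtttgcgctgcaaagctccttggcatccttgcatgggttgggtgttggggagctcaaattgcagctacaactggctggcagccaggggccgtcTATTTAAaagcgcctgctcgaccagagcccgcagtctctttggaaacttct

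The match TATAAA lay 28 to 23 bases before the start of Igfbp4, TATATA 30 to 25 bases before that of Igfbp3, and TATTTAA 51 to 45 bases before that of Igfbp5. Any of these letter strings, on the given strand between 40 and 15 bases before the start, was present in 3.0% of 32851 mouse promoters. This window was also chosen after the sequences had been read. Among the members only Igfbp3 and Igfbp4 had a match in it, and the Igfbp5 match lies outside it. The 3.0% is thus a description and not a test. Igf1 held CCAAT in reverse and TGANTCA, whose letters stand in 33.8% and 6.75% of those promoters, and its RefSeq start lies 2846 bases inside the annotated gene. None of the 4 windows held the GC box, which 32.7% of promoters hold. In whole windows, TATAAA stood in 12.4% of promoters, TATATA in 5.25% and TATTTAA in 4.18%. The E box stood in 6.02%, the C/EBP site in 9.56% and the glucocorticoid half-site in 16.1%, and none of them in the 4 windows.

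The GC box was present before Igf1r, Igf2r, Igfbp7 and 1 of the 2 RefSeq starts of Igfbp2. It was absent before the other Igfbp2 start, whose window held an AP-1 match only. It was also absent before Igfbp6, which rose only 1.84-fold between days 0 and 3 in untreated cells. The Igfbp6 window held TATAAA in reverse and CCAAT. Igfbp7 and Igf1r, which changed little between days 0 and 3 in untreated cells, are shown for comparison (chr5:77408046-77408295, minus, and chr7:67952007-67952256, plus). Such matches describe letters in a window and not sites in use.
Igfbp7: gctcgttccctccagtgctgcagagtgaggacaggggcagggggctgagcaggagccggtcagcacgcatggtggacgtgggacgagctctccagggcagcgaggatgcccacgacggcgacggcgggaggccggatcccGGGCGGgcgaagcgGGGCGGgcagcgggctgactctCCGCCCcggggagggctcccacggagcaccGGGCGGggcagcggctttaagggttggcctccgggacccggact
Igf1r: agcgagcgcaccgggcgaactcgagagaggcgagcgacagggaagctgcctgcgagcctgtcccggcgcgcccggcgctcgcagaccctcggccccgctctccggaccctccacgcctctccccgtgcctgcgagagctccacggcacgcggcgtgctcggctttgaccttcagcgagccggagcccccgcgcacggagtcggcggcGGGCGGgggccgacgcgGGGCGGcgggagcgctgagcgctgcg

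Igfbp7 and Igfbp6 differed with treatment at both days, in opposite directions. IGFBP7 binds IGFs only weakly and is a matrix-associated protein. Igfbp7 (ENSMUSG00000036256; chr5:77349240-77408041, minus strand) stood at 30.2, 37.3 and 32.4 RPKM in MEFD0 and 26.1, 28.8 and 31.0 RPKM in MEFD3min. It reached 70.6, 72.1 and 83.8 RPKM in MEFD3plu. At day 5 it stood at 43.9, 33.1 and 47.2 RPKM in MEFD5min and 104, 115 and 111 RPKM in MEFD5plu. Every treated sample lay above every untreated sample of either day.

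Treated cells had 2.63-fold more Igfbp7 at day 3 (log2 fold change 1.40 ± 0.12 (SE), edgeR adjusted p = 3.01e-08) and 2.65-fold more at day 5 (log2 fold change 1.41 ± 0.12 (SE), edgeR adjusted p = 5.80e-08). The 2 effects differed by -0.01 ± 0.17 (SE; edgeR adjusted p = 0.968). From day 3 to day 5 Igfbp7 rose by 0.53 in untreated and by 0.54 in treated cells, with edgeR adjusted p = 0.00171 and 0.000685. Igfbp7 shares 85 exon bases (7.03%) with Polr2b on the opposite strand, and 2.99% of its 50-base stretches also occur there. Polr2b itself lay between 106 and 142 mean CPM.

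Igfbp6, the gene of a binding protein that prefers IGF2, moved the other way. Igfbp6 (ENSMUSG00000023046; chr15:102144362-102149511, plus strand) gave 13.6, 14.5 and 15.1 RPKM in MEFD0. At day 3 it gave 24.6, 23.4 and 31.8 RPKM in MEFD3min and 4.63, 3.97 and 4.56 RPKM in MEFD3plu. At day 5 it gave 23.4, 17.6 and 22.8 RPKM in MEFD5min and 11.6, 10.9 and 10.4 RPKM in MEFD5plu. Treated samples were the lower ones at both days, and they also lay below MEFD0.

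Igfbp6 was 6.05-fold lower in treated cells at day 3 (log2 fold change -2.60 ± 0.14 (SE), edgeR adjusted p = 5.57e-11) and 1.94-fold lower at day 5 (log2 fold change -0.96 ± 0.13 (SE), edgeR adjusted p = 1.04e-05). The effects differed by -1.64 ± 0.19 (SE; edgeR adjusted p = 1.99e-06). After the medium was withdrawn Igfbp6 rose 2.50-fold from MEFD3plu to MEFD5plu (edgeR adjusted p = 4.11e-07), against a fall of 1.25-fold from MEFD3min to MEFD5min (log2 fold change -0.32, edgeR adjusted p = 0.0492). The latter call was lost with total counts alone (edgeR adjusted p = 0.149), with only the samples compared (edgeR adjusted p = 0.148) and without MEFD3min replicate 1 or 4 or MEFD5min replicate 3 or 4.

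Igfbp2 lies next to Igfbp5 on chromosome 1, tail to tail and 5457 bases away (ENSMUSG00000039323; chr1:72824503-72852474, plus strand), but was detected at a very different level. It had 0 counts in all MEFD0 and MEFD3min samples, and 1, 0 and 0 counts in MEFD5min. MEFD3plu had 9, 20 and 21 counts (mean 0.509 CPM) and MEFD5plu 7, 4 and 5 counts (mean 0.163 CPM). All 6 treated samples were thus above all others. Against a floor of 3 counts per library Igfbp2 was at least 5.47-fold higher in treated cells at day 3 and at least 1.73-fold higher at day 5. No test is given, since Igfbp2 was tested only because it was high in MEFD3plu.

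**Figure D3:**
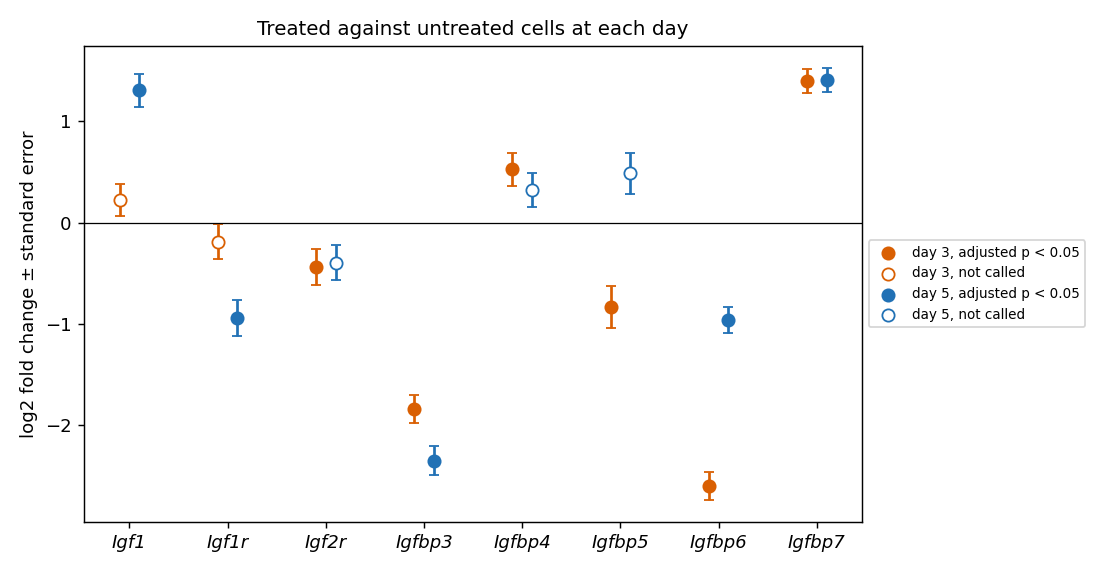
Log2 fold change of treated against untreated cells (y axis; bars are SEs) at day 3 (orange) and day 5 (blue) for the 8 members other than Igfbp2; filled points were called. Igfbp7 lies at 1.40 and 1.41 and Igfbp3 at -1.83 and -2.35, while Igf1 and Igf1r, in this fit of all samples, were called only at day 5 and Igfbp5 lies at -0.83 and 0.48.

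Counted over the 8 members other than Igfbp2, which had to differ to pass the filter, 2 were higher and 4 lower in MEFD3plu than in MEFD3min, where 28.0% of all genes were higher, 28.0% lower and 56.1% called in all. At day 5, 2 were higher and 3 lower, where 26.3% of all genes were higher, 24.2% lower and 50.5% called in all. The effects at both days differed for 5 members, positively (day 3 minus day 5) for Igf1r and Igfbp3 and negatively for Igf1, Igfbp5 and Igfbp6, where 22.6% of all genes had a positive, 25.8% a negative and 48.5% any called difference. With no filter on low counts the other 3 (Igf2r, Igfbp4 and Igfbp5) were called at day 5 as well. Their log2 fold changes were almost the same there, so these calls came from smaller p-values and not from larger differences. The median log2 fold change of the 8 was -0.31 at day 3 and -0.03 at day 5, beside -0.00057 and 0.01 over all genes tested. The adipocyte genes were higher in treated cells for 10 of 10 at both days, and so moved with the treatment differences of each day. Their effects differed between the days (day 3 minus day 5) negatively for 4 of 10 and were not called for 6. Fibroblast genes also moved with treatment at day 3, when 7 of 8 were lower in treated cells. Their summed level was then 10845 to 12006 CPM in MEFD3plu against 21057 to 28266 CPM in MEFD3min. Lum went from a mean of 361 to 20.8 CPM, Dcn from 2830 to 450 CPM and the collagen gene Col1a1 from 2914 to 825 CPM. At day 5, 2 fibroblast genes were higher and 2 lower in treated cells. The difference between the days was called for 8 of 8 fibroblast genes, negatively as for Igf1, Igfbp5 and Igfbp6. The part of either list in the members' differences was not tested.

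Between days 3 and 5, 6 members fell and 1 rose in untreated cells, where 21.5% of all genes fell, 21.3% rose and 42.8% were called in all. In treated cells 5 fell and 2 rose, where 29.2% of all genes fell, 33.8% rose and 63.0% were called in all. Igf2r, Igfbp3, Igfbp4 and Igfbp5 fell in both arms, and Igfbp7 rose in both. Igfbp5 fell by 2.79 on the log2 scale in untreated cells and fell by 1.48 in treated cells. In MEFD3plu 6 members were higher and 1 lower than in MEFD0, where 33.9% of all genes were higher, 29.7% lower and 63.5% called in all. In MEFD5plu 5 were higher and 2 lower, where 35.2% of all genes were higher, 29.8% lower and 65.0% called in all. The members below MEFD0 were Igfbp6 in both treated conditions (log2 fold change -1.72 and -0.39) and Igf1r in MEFD5plu (2.001-fold lower). In MEFD5min 6 members were higher than in MEFD0 and none lower, where 24.5% of all genes were higher, 21.9% lower and 46.4% called in all. Of these, Igfbp7 (0.32, edgeR adjusted p = 0.0391) lost its call without MEFD0 replicate 1 or 4 or MEFD5min replicate 1 or 4. The call of Igfbp6 in MEFD5plu was lost without MEFD5plu replicate 4 (edgeR adjusted p = 0.0518).

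The binding protein transcripts as a pool changed in amount and in make-up. Their summed level was 57.8 ± 3.83 RPKM (SD, n = 3) in MEFD0. At day 3 it was 1971 ± 459 in MEFD3min, with replicate 3 the highest, and 1113 ± 99.8 in MEFD3plu. At day 5 it was 502 ± 100.4 in MEFD5min and 504 ± 76.6 in MEFD5plu. The untreated and treated pools at day 5 thus had nearly the same mean and overlapped. In MEFD0 the pool was mostly Igfbp7 (57.5% ± 2.59) and Igfbp6 (25.0% ± 1.27), whereas Igfbp5 made up 13.9% ± 0.684.

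At day 3 Igfbp5 took the largest share, at 81.3% ± 2.88 in MEFD3min and 81.3% ± 1.997 in MEFD3plu. The day 5 share was 45.9% ± 5.07 in MEFD5min against 64.1% ± 4.47 in MEFD5plu, with no overlap. Igfbp3 held 13.96% ± 1.90 in MEFD3min against 6.80% ± 0.761 in MEFD3plu, and 38.4% ± 3.89 in MEFD5min against 7.42% ± 0.566 in MEFD5plu. Igfbp7 held 1.51% ± 0.383 in MEFD3min against 6.85% ± 1.16 in MEFD3plu, and MEFD5plu had 22.3% ± 4.38 of it against 8.31% ± 1.00 in MEFD5min. The day 5 pools thus had similar totals and different proportions. Shares depend on the gene length used, and with the longest transcript in place of all annotated exons Igfbp3 came before Igfbp5 in MEFD5min (44.4% against 41.1%).

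**Figure D4:**
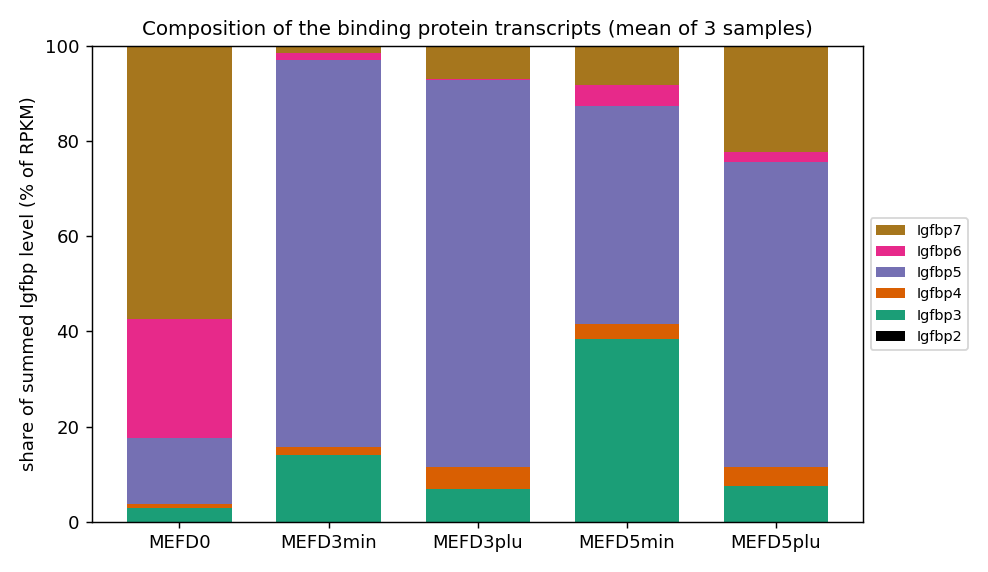
Share of each binding protein gene in their summed level (y axis, % of summed RPKM, mean of 3 samples) in the 5 conditions (x axis). Igfbp7 and Igfbp6 fill most of the MEFD0 bar, Igfbp5 is the largest part of each later bar (in MEFD5min with this exon length only), and Igfbp3 takes 38.4% of the MEFD5min bar and 7.42% of the MEFD5plu bar.

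Set against the ligand gene Igf1 alone, the summed binding protein level was 491 ± 45.3 times as high in MEFD0 (SD, n = 3). This ratio was chosen after the data were seen. It was 177 ± 60.6 in MEFD3min and 84.2 ± 12.5 in MEFD3plu. The MEFD3min samples ran from 135 to 246, with replicate 3 the highest. At day 5 the ratio was 115 ± 20.4 in MEFD5min and 45.3 ± 6.68 in MEFD5plu. The treated samples had the lower ratios at both days with no overlap, which is given without a test. Leaving out the weak binder Igfbp7 gave 174 against 78.5 at day 3 and 106 against 35.4 at day 5. In MEFD0 it gave 209 in place of 491. Without Igfbp7 the MEFD0 samples (193.6 to 236) overlapped those of MEFD3min (132 to 243), through MEFD3min replicate 3 alone. These are ratios of RNA levels and do not measure protein. They also leave out Igf2, the other ligand gene, whose level lay far above that of Igf1 at days 3 and 5. Its means were 426 RPKM in MEFD3min and 180 in MEFD3plu, and 163 in MEFD5min and 174 in MEFD5plu. No ratio to both ligands was computed, so the lower ratios of treated samples hold for Igf1 alone.

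Within a condition the order of the members per length also changed. In MEFD0 Igf2r and Igfbp7 led and overlapped, and Igf1 and Igfbp2 were last. By exon length Igfbp5 led from day 3 on in each condition, followed by Igfbp3 in MEFD3min and MEFD5min, and in MEFD5min the samples of Igfbp5 and Igfbp3 overlapped.

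For each member other than Igfbp2, the genes whose log2 CPM followed it most closely over the 15 samples were found among 9586 genes compared. They were Itm2a (r = 0.998) and H19 (0.995) for Igf1 and Reck (0.997) and Col3a1 (0.996) for Igfbp5. They were Dchs2 (0.994) and Kank3 (0.989) for Igfbp4, and Pttg1ip (0.973) and Ctsf (0.972) for Igfbp3. For Igfbp6 they were Sept5 (0.979) and Fut8 (0.975), and for Igfbp7 Dusp22 (0.975) and Fah (0.974). For the receptors they were Rcor1 (0.978) and Zfp319 (0.977) with Igf1r, and Lamc1 (0.978) and 9930021J03Rik (0.975) with Igf2r. These r describe 15 points that fall into 5 conditions and share their libraries, so the points are not independent.

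The wider pathway was read from 34 further genes in 5 lists, of which 29 were tested. At day 3, 11 were higher and 10 lower in treated cells, with a median log2 fold change of -0.09. At day 5, 8 were higher and 8 lower, with a median of 0.03. The lists thus had members moving in both directions, and their shares called, 21 and 16 of 29, stand beside the 56.1% and 50.5% of all genes above.

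Igf2, the ligand of Igf2r, was at a mean of 0.783 ± 0.918 CPM (SD, n = 3) in MEFD0 and 2436 ± 166 CPM in MEFD3min. It was lower in MEFD3plu, at 1032 CPM (log2 fold change -1.24 ± 0.29 (SE), edgeR adjusted p = 0.00139), and at day 5 the means were 933 CPM in MEFD5min and 997 CPM in MEFD5plu (edgeR adjusted p = 0.805). Insr, the insulin receptor gene, was higher in MEFD3plu by 0.66 ± 0.14 (SE; edgeR adjusted p = 0.000778) and stood at -0.30 at day 5 (edgeR adjusted p = 0.0931). Igfbp1, which lies 3539 bases from Igfbp3 on chromosome 11, Igfals, Igfbpl1 and Insrr did not pass the filter. Igfbp1 had at most 8 counts in a sample.

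Of the 7 tested genes for proteases of binding proteins and their inhibitors, 4 were higher and 3 lower at day 3, and 2 were higher and 3 lower at day 5. Adam12, a metalloprotease that cleaves IGFBP3 and IGFBP5, went from 7.57 to 208 mean CPM with treatment at day 3 (log2 fold change 4.78 ± 0.16 (SE), edgeR adjusted p = 1.34e-13) and was 1.15 higher at day 5. Pappa2, a protease of IGFBP5, was lower in treated cells, with log2 fold changes of -1.58 ± 0.12 (SE) at day 3 and -2.24 ± 0.12 (SE) at day 5 (edgeR adjusted p = 4.49e-09 and 1.55e-10). Pappa, the IGFBP4 protease gene, named after its values were seen, was higher by 2.64 at day 3 and by 1.05 at day 5 (edgeR adjusted p = 7.22e-10 and 0.000146). At day 3 Pappa and its substrate gene Igfbp4 were thus both higher in treated cells.

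In the growth hormone receptor list 2 of 6 genes were higher and 3 lower at day 3, and 1 was higher and 1 lower at day 5. Stat5a, a transcription factor of this pathway, was higher by 2.18 and 1.53 at the 2 days. The receptor gene Ghr was lower at day 3 (log2 fold change -1.38). Socs2, an inhibitor of the pathway, was lower at day 5 (-0.63) and higher at day 3 (1.10).

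Of 10 genes for adaptors and kinases below the receptor, 3 were higher and 3 lower at day 3, and 4 were higher and 4 lower at day 5. Pik3r1, the regulatory subunit of phosphatidylinositol 3-kinase, was higher by 1.09 and 1.06, and Grb14, an inhibitor of the insulin receptor, was lower (log2 fold change -1.02 and -1.73). Among 4 genes for mannose 6-phosphate tagging and sorting, 1 was called at each day. These were Gnptab, a subunit of the enzyme that makes the tag, at 0.89 at day 3, and Gnptg, another subunit of it, at 0.49 at day 5.

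**Figure D5:**
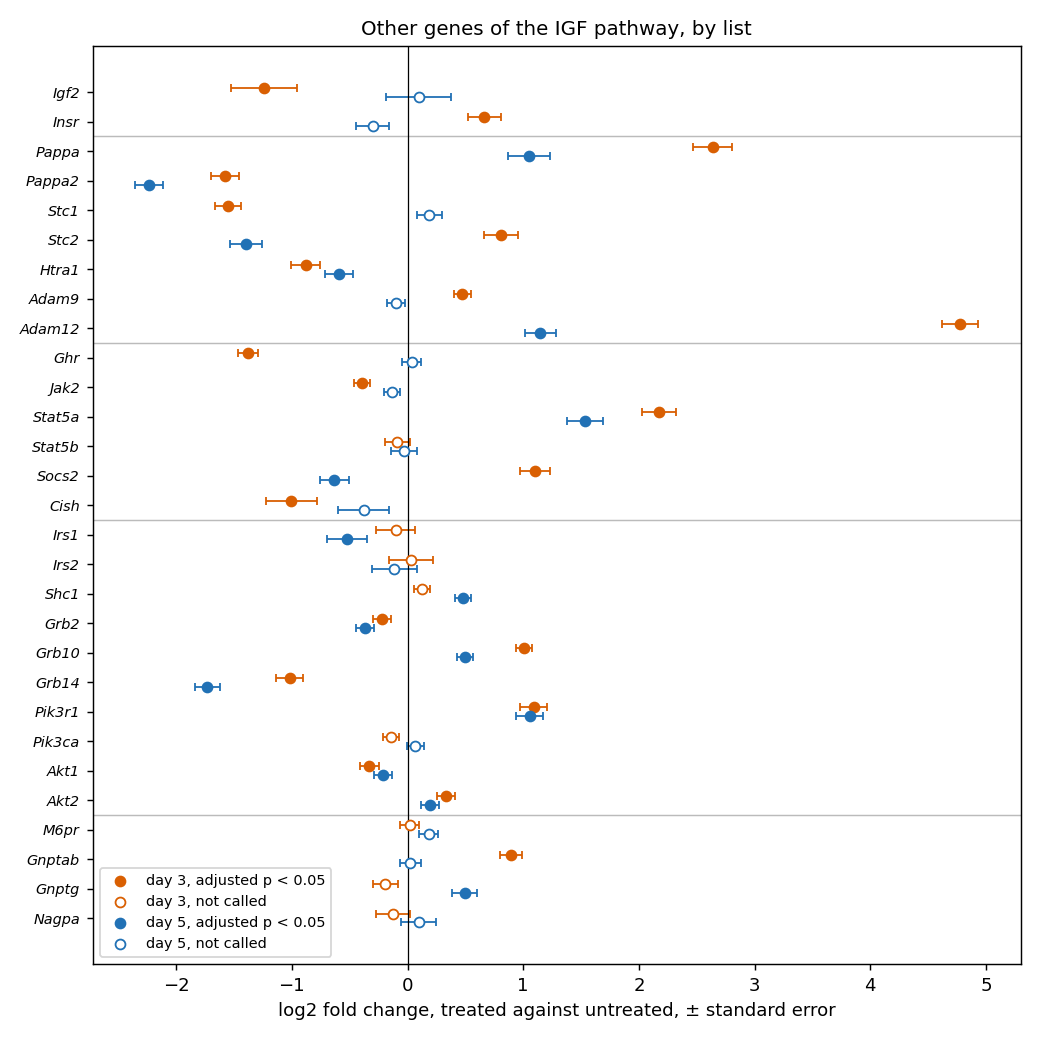
Log2 fold change of treated against untreated cells (x axis; bars are SEs) at day 3 (orange) and day 5 (blue) for the 29 tested genes of the 5 lists (y axis, lists separated by lines; from the top: other IGF axis, proteases and inhibitors, growth hormone receptor, adaptors and kinases, mannose 6-phosphate); filled points were called. Adam12 at 4.78 and Pappa at 2.64 lie farthest to the right at day 3, and Pappa2 at -2.24 farthest to the left at day 5.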

How the data were processed

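RNA-Seq was analysed for 15 samples, 3 in each of 5 conditions, grouped by the sample labels. The authors deposited raw counts of reads per Ensembl gene, 1 file per sample, from reads aligned to GRCm38/mm10. The submitters' processing notes list TopHat2 2.1.0, HTSeq and DESeq2. The annotation release, the strand setting and the handling of reads with several matches are not given in the sources used here, and the labels and the study's methods name different library kits, 1 of them stranded.

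Of 46603 identifiers, 46005 had a symbol in GENCODE M21 (GRCm38), which also gave exon lengths for RPKM, and 29186 genes had at least 1 count. Libraries held 24030558 to 37281126 counts. The filter filterByExpr of edgeR 4.0.16 (R 4.3.3) left 15997 genes, and TMM factors scaled the libraries. Then glmQLFit and glmQLFTest were run in 1 fit over all 15 samples without covariates, with Benjamini-Hochberg adjustment over all genes tested. Floors and counts of at most 3 cover counting error only. The 9 members and all gene lists were chosen with earlier results of these data known. Besides the members, the text names the most raised and most lowered called gene of each pathway list at each day and genes that overlap a member. It also names the 2 genes most like each member other than Igfbp2. Promoter sequences of all 9 members came from RefSeq (GRCm38.p6). No protein sequences are shown.

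Replicates of a condition differed by more than sampling noise (chi-square per degree of freedom 6.12 to 125), so none was counted as a duplicate. The replicate numbers come from the labels. Deviations from the condition means correlated between same-numbered samples of MEFD3min and MEFD3plu (r = 0.143, 0.228 and 0.360), so the numbers pair these samples. The block changed no member's call at day 3 in the fit of all samples. The alternatives were DESeq2 1.42.0, DESeq2's size factors, total counts alone, no filter, at least 10 counts in every sample, a block for the replicate number, leaving out single samples, and only the samples compared. A block fit of day 3 alone and the ratio of binding proteins to Igf1 were added after the data were seen. The edgeR fit was tested on simulated data for MEFD3plu against MEFD3min.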

Additional observations from a re-analysis of the deposited data

Results flagged for a closer look

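The effect of treatment (log2 fold change, treated against untreated) differed between day 3 and day 5 for 5 members, by the interaction term of the edgeR quasi-likelihood fit, with 3 samples in each condition. The difference (day 3 minus day 5) was -1.08 for Igf1 (edgeR adjusted p = 0.000712), which was called at day 5 and, at day 3, only in the block fit of that day, and 0.75 for Igf1r (edgeR adjusted p = 0.0186), which was called at day 5 alone. It was 0.51 for Igfbp3 (edgeR adjusted p = 0.0355), which was lower in treated cells at both days and more so at day 5. For Igfbp5 it was -1.32 (edgeR adjusted p = 0.00127), with the effect going from -0.83 to 0.48. For Igfbp6 it was -1.64 (edgeR adjusted p = 1.99e-06), with treated cells 6.05-fold lower at day 3 and 1.94-fold lower at day 5. Groups of 3 samples are too small for the test of single outlying samples used for this kind of data.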

How the results depend on the processing

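Of 1067 values recomputed for the members under the alternatives, 990 kept their direction and their side of the threshold, 33 lost their call, 27 gained one and 17 changed sign. These values and the counts that follow include Igfbp2, so the counts are over 9 members. Since Igfbp2 passed the filter only by being high in MEFD3plu, its calls there carry no weight. The shares of all genes called are those given with each comparison above. Without each sample in turn, 3 to 5 members were called for the difference between the days, 3 of them without MEFD5plu replicate 3. The count was 5 to 7 for treatment at day 3, 6 to 8 at day 5, 6 to 7 for MEFD3min against MEFD0, 5 to 6 for MEFD5min against MEFD0, 6 to 7 for MEFD5min against MEFD3min, 7 to 8 for MEFD5plu against MEFD3plu, 8 for MEFD3plu against MEFD0 and 7 to 9 for MEFD5plu against MEFD0.

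The sign changes were of small differences that were not called. The difference between the days for Igfbp7 (-0.01) was 0.17 with total counts alone, 0.0243 with size factors from DESeq2, 0.0239 with DESeq2 itself and 0.0284 with only the samples compared, and -0.0901 to 0.13 with single samples left out. That for Igf2r was 0.14 with total counts alone and -0.17 to 0.25 with single samples left out. With single samples left out, Igf1r treated against untreated at day 3 was -0.36 to 0.0903, Igf1r in MEFD5min against MEFD0 -0.18 to 0.00905, and Igf2r there -0.0840 to 0.18. Scaling by total counts alone shifted the log2 median over all genes by -0.16 at day 5, by 0.18 for the difference between the days, by -0.12 for MEFD3min and by -0.18 for MEFD5plu against MEFD0.

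The replicate block raised the calls over all genes from 8967 to 9452 at day 3 and from 8080 to 8607 at day 5. Among the members it added calls for Igf2r and Igfbp5 at day 5 (adjusted p = 0.0355 and 0.0336) and for Igf1r in MEFD5min against MEFD3min (adjusted p = 0.039), and changed no other call. Over all pairs of conditions 10 of 30 same-number correlations of the deviations were over 0.1, those of MEFD3min with MEFD3plu among them. Those of MEFD0 with both day 3 conditions were 0.0706 to 0.180, and 11 of 15 samples correlated best with their own number. Whether the numbers pair the samples outside MEFD3min and MEFD3plu was thus not settled. In the block fit of day 3 alone Igf1 was called (0.21, adjusted p = 0.0241). With at least 10 counts required in every sample Igfbp2 was not tested, so no count over the 9 was made. At this depth Igfbp2 was the only member near the floor.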
